A study of Caenorhabditis elegans with 2 samples.

Results

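The cytochrome P450 genes of Caenorhabditis elegans were described at the binding sites of the GATA transcription factor ELT-1 in L3 larvae. The members were the 74 protein-coding genes of the Ensembl WBcel235 annotation whose symbols start with cyp-, out of 19985 protein-coding genes. They fell into 15 families by the number in the symbol, the largest being cyp-33 with 18 genes, cyp-13 with 13, cyp-35 with 10 and cyp-34 with 8. Chromosome V held 41 of them, II held 12, X and IV held 7 each, III held 6 and I held 1.

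Binding was measured by chromatin immunoprecipitation and sequencing of eGFP-tagged ELT-1 in a single group of 2 biological replicates. Both came from whole mixed-sex L3 larvae of strain OP354, which carries the unc-119(tm4063) III allele and the inserted transgene wgIs354 for tagged elt-1. No other strain, stage or treatment was included, so no contrast between conditions was possible. A whole larva mixes all tissues, and a summit does not tell in which cells the factor was bound. Whether the tagged transgene binds as the untagged factor does was not measured.

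Cytochrome P450 enzymes are membrane-bound haem proteins that insert an oxygen atom into fatty acids, sterols and foreign compounds, drawing electrons from a reductase. Nematodes hold an expanded set, much of it in tandem arrays, and several families (cyp-35 among them) are known for induction in the intestine by xenobiotics. ELT-1 is best known for specifying epidermal fate and acts in the epidermis of larvae, while the GATA factor ELT-2 dominates in the intestine. GATA factors read 4 hexamers on either strand: AGATAA, its variant ending in G (AGATAG), the form TGATAA that starts with T, and that form ending in G (TGATAG).

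The authors deposited 4 peak lists on build ce11. The list thresholded by irreproducible discovery rate (IDR, which scores how well peak ranks repeat between replicates) held peaks with signal from 27.7 to 1900. Relaxed lists, named by the authors as peaks and background, held 30000 regions for the pooled replicates, 29029 for replicate 1 and 30000 for replicate 2. The IDR list was the top of the pooled list by signal, and the weakest pooled regions had a signal of 4.57. Signal values are the authors' own and serve here to rank peaks inside each list, never between lists. Read depth is unknown. The promoter window of a gene is taken from 1000 bp before to 200 bp after any of its protein-coding transcript starts, and positions are in bp from the start, negative upstream.

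ELT-1 binding past the IDR threshold was rare at the starts of P450 genes. Only cyp-13A2, in the tandem cyp-13A array on chromosome II, had such a summit inside its promoter window. That is 1 of 74 genes or 1.35%, beside 5.03% of all protein-coding genes, and the exact 95% Clopper-Pearson interval for the cyp share ran from 0.0342% to 7.30%. With distal summits within 5 kb of a start included, 7 of 74 genes or 9.46% had an IDR summit (interval 3.89% to 18.5%), beside 15.7% of all genes. These were cyp-13A1, cyp-13A2, cyp-14A5, cyp-33A1, cyp-33E2, cyp-42A1 and cyp-44A1. Both intervals include the share over all genes, so a difference from the background was not detectable with 74 genes. The intervals treat genes as independent, which neighbours that share a summit are not.

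**Figure D1:**
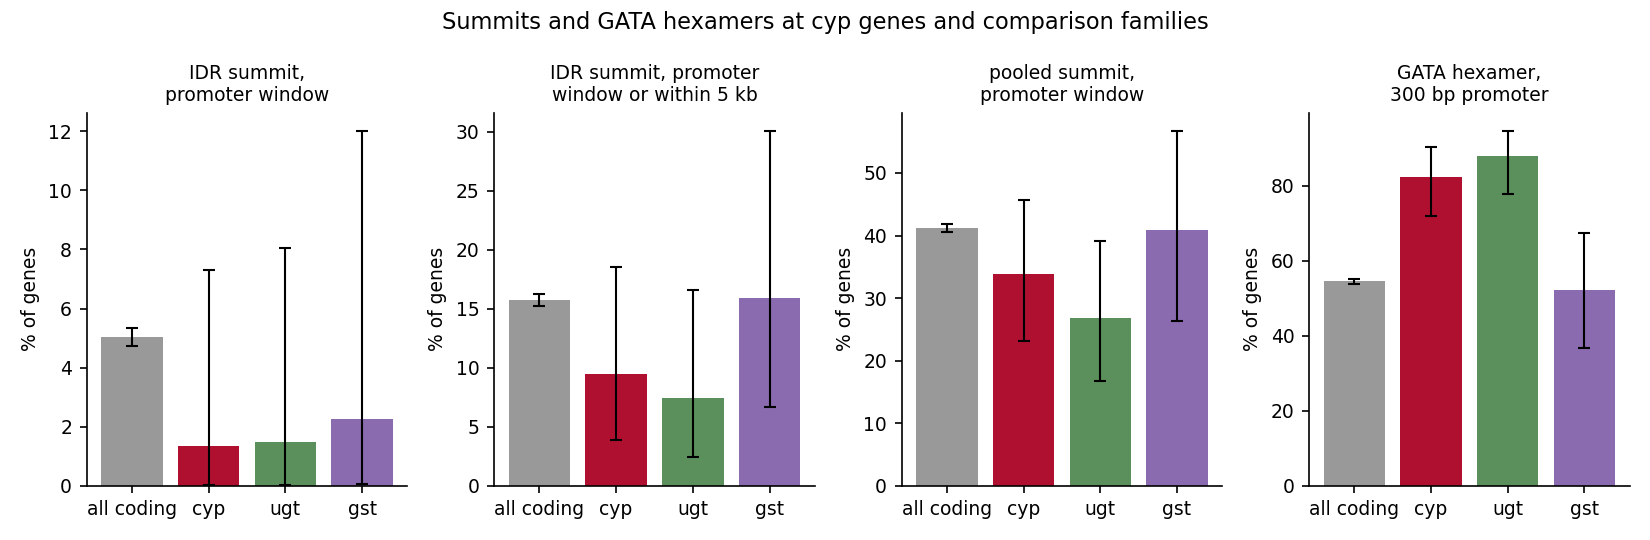
Share of genes (%, y axis) with an IDR summit in the promoter window, an IDR summit in the window or within 5 kb, a pooled summit in the window, and a GATA hexamer in the 300 bp promoter, for all protein-coding genes and the cyp, ugt and gst families, with exact 95% Clopper-Pearson intervals as error bars. The cyp bars sit below all genes for each kind of summit, with intervals that include the share over all genes, and above all genes for the hexamer (82.4% beside 54.5%).

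The conjugating enzymes of the same detoxification system serve as comparison families. Among the 67 ugt genes, which encode UDP-glucuronosyltransferases, 1 (ugt-13) had an IDR summit in its window and 5 within 5 kb. Among the 44 gst genes, which encode glutathione S-transferases, 1 (gst-20) had an IDR summit in its window and 7 within 5 kb. The window shares were 1.49% for ugt and 2.27% for gst, beside 5.03% of all genes. The shares within 5 kb were 7.46% for ugt and 15.9% for gst, beside 15.7% of all genes. On chromosome V, none of the 41 cyp genes had an IDR summit in its window, beside 3.82% of the 4953 other protein-coding genes there. Within 5 kb, 3 of those 41 cyp genes or 7.32% had an IDR summit, beside 12.7% of the others on V.

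The cyp-13A2 promoter carried the strongest binding at any P450 start. Its IDR peak spanned II 9787556 to 9787678 on ce11, with the summit at position 10 in the 5′ UTR and a signal of 75.2, rank 274 of the IDR list. Replicate 1 listed a region there with a signal of 21.2 (rank 554) and a summit 95 bp away, and replicate 2 listed 60.5 (rank 169) with a summit 3 bp away. A second IDR summit lay in an intron of cyp-13A2, at position 1115, with a signal of 29.01 and rank 1762, close to the lowest IDR signal of 27.7. The replicates listed 14.2 and 15.4 at that intronic place. The intronic summit is also the only one that put cyp-13A1, the next gene downstream, among the 7, at position −4517 from its start. Both places were thus listed in each replicate's relaxed list, the intron at rank 1204 in replicate 1 and 2598 in replicate 2, below the promoter in both. Each held AGATAA, shown in capitals below on the strand of the gene, where TTATCT is AGATAA on the other strand. Only 30 bases are shown at the promoter because the summit lies in the UTR, and 101 bases centred on the summit in the intron.
cyp-13A2 promoter, ce11 chrII:9787584-9787613, minus strand: gtgtctagatcgTTATCTcttttcgttttc
cyp-13A2 intron, ce11 chrII:9786464-9786564, minus strand: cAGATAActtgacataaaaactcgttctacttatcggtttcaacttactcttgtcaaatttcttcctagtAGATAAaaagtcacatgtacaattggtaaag

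The strongest binding near any P450 gene lay upstream of cyp-14A5 on chromosome V. Its first summit, at position −1955, had a signal of 294, rank 20 of the IDR list, with 117.5 in replicate 1 (rank 29) and 180.2 in replicate 2 (rank 16). A further summit at position −3269 had a signal of 161.3, rank 51, with 70.1 in replicate 1 (rank 52) and 89.4 in replicate 2 (rank 61). Both ranked near the top in each replicate list. The summit at −1955 lay in exons of the non-coding RNA genes F08F3.12 and linc-96, and cyp-14A5 was the protein-coding gene with the nearest start. The summit at −3269 lay in an intron of linc-96, and its nearest protein-coding start belonged to rhr-1, which encodes an ammonium transporter of the Rhesus family. Which of these genes the binding concerns cannot be told from position. The promoter window of cyp-14A5 itself held only weak regions, with signals of 8.81 in the pooled list, 5.05 in replicate 1 and 5.104 in replicate 2. Over the 101 bases centred on each summit, the stronger site held 1 AGATAA (capitals) and the weaker held none of the 4 hexamers.
cyp-14A5 at −1955, ce11 chrV:5425187-5425287, minus strand: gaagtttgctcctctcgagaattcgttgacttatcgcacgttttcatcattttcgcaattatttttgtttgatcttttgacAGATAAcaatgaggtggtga
cyp-14A5 at −3269, ce11 chrV:5426501-5426601, minus strand: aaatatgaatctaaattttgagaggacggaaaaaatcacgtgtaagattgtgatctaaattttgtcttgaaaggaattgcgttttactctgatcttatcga

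The other 4 distal summits were nearer to other genes than to the P450 gene. At cyp-33A1, the summit at position −4939 had a signal of 148.9 (rank 62), with 52.0 in replicate 1 (rank 89) and 103.9 in replicate 2 (rank 47). That summit lay in the 5′ UTR of nhr-152 and in the windows of nhr-152 and nhr-94, which encode nuclear hormone receptors. The window of cyp-33A1 itself held a pooled region with a signal of 4.57, rank 29989 of 30000. At cyp-42A1, the summit at position −4286 had a signal of 57.6 (rank 481), with 16.9 in replicate 1 (rank 871) and 41.9 in replicate 2 (rank 382). It lay between genes, in no promoter window, with mihp-2 as the gene with the nearest start, and its 101 bases were 56.4% G and C, above the 26.7% to 44.6% at the other 7 summits. Both of these held a GATA hexamer, shown here as distal sites that hold one.
cyp-33A1, 30 bases around the hexamer, ce11 chrV:7686426-7686455, minus strand: cgatctaagatgTTATCTaattaatagtgc
cyp-42A1 at −4286, ce11 chrV:18907700-18907800, plus strand: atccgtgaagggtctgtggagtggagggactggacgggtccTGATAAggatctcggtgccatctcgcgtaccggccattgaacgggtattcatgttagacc

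The 2 remaining distal summits held no hexamer within 50 bp. At cyp-33E2, whose product makes signalling lipids from polyunsaturated fatty acids, the summit at position −3951 had a signal of 48.2 (rank 691), with 12.3 in replicate 1 and 30.2 in replicate 2. It lay in the window of F42A9.6. At cyp-44A1, the worm's mitochondrial-type P450, the summit at position −2619 had a signal of 28.6 (rank 1810), with 7.29 in replicate 1 (rank 4137) and 21.0 in replicate 2 (rank 1564). It lay in an intron of fzy-1, the Cdc20 orthologue, in the windows of fzy-1 and F12A10.8. The cyp-44A1 summit was the weakest of the 8 and the only one with a rank past 2000 in replicate 1, and the intronic cyp-13A2 summit was the only one with such a rank (2598) in replicate 2. Counting a distal summit only where a cyp gene has the nearest protein-coding start left 2 of the 7 genes, cyp-13A2 and cyp-14A5.

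**Figure D2:**
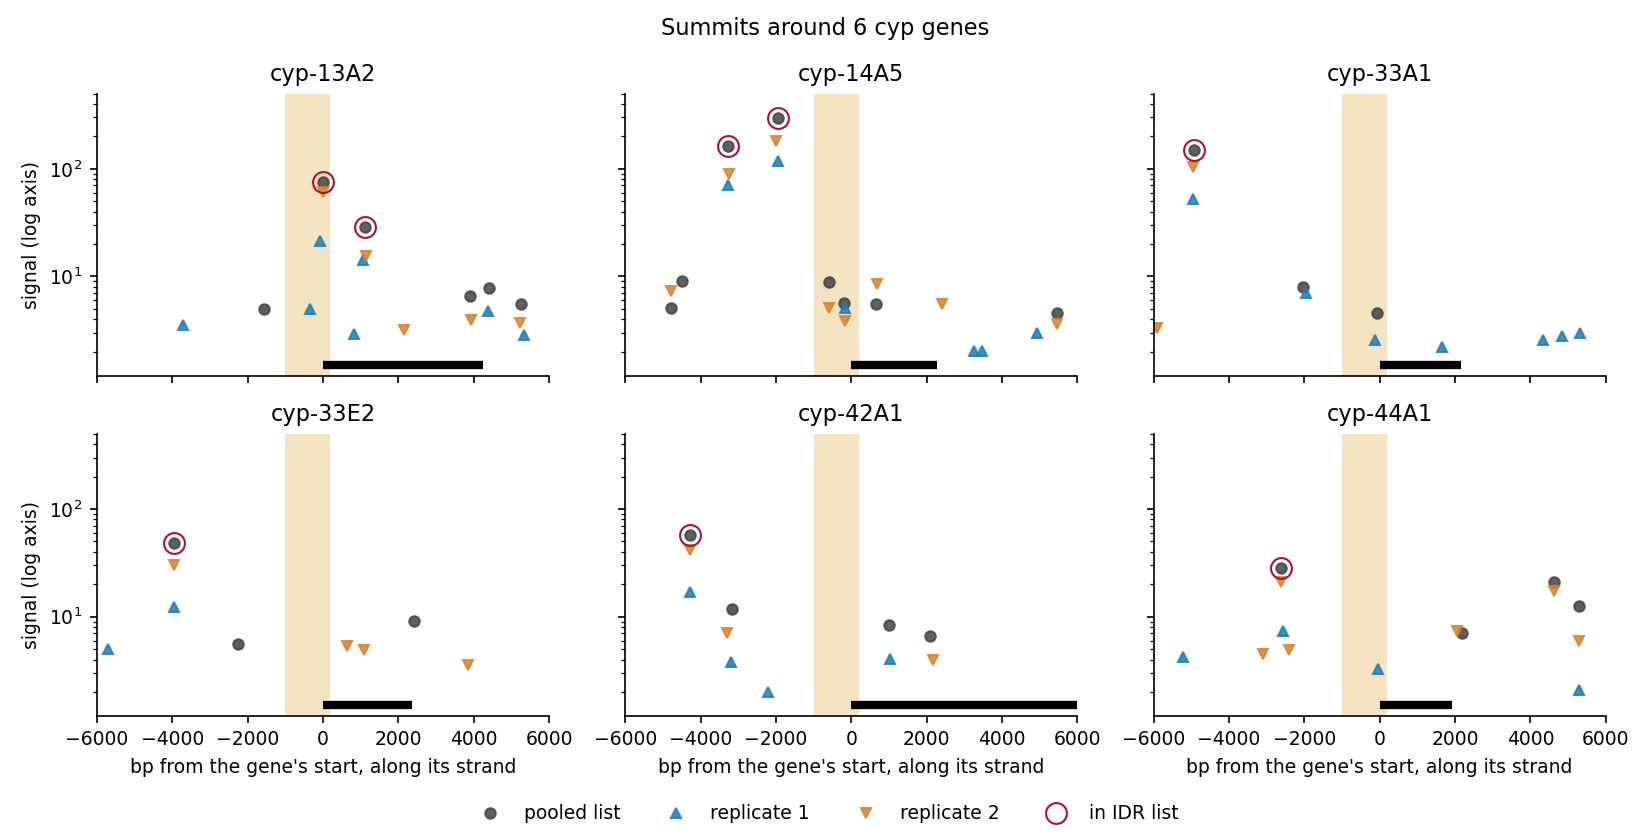
Summits of the pooled and replicate lists (signal on a log axis) by distance from the start along the strand (bp) around the 6 cyp genes under which the 8 IDR summits are described, with the promoter window shaded, the gene body as a bar and IDR summits ringed. Only cyp-13A2 has a ringed summit in the shaded window, and the tallest lies 1955 bp upstream of cyp-14A5 at 294.

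Of the 8 IDR summits at P450 genes, 5 or 62.5% had a GATA hexamer within 50 bp (interval 24.5% to 91.5%), beside 39.7% of all IDR summits. Over the 27789 pooled summits more than 500 bp from every IDR summit the share was 21.1%. The 28 weaker pooled summits in cyp windows held one in 6 cases, or 21.4% (interval 8.30% to 40.9%), an interval that includes both of these shares. AGATAA was the form at 4 of the 5 summits and TGATAA at the other. Every 31-base word in the 101 bases at each of the 8 summits was unique in the genome.

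In the relaxed pooled list, which includes the IDR peaks, 25 cyp genes or 33.8% had a summit in the promoter window (interval 23.2% to 45.7%), beside 41.2% of all genes. cyp-13A2 is among the 25 through its IDR summit, and at each of the others the strongest pooled window summit was below the IDR threshold. In replicate 1 the count was 23 genes or 31.1%, beside 39.7% of all genes, and in replicate 2 it was 16 genes or 21.6%, beside 41.5%. The cyp share thus lay further below that of all genes in replicate 2 than in replicate 1. No interval was calculated for the replicate shares. Both replicates had a summit in the window of 10 cyp genes or 13.5%, beside 24.4% of all genes. Leaving out replicate 1 thus gives 16 genes in place of the pooled 25, and leaving out replicate 2 gives 23. On chromosome V the pooled share was 31.7% for cyp genes and 32.9% for the other genes. Taking all 3 relaxed lists, 35 of the 74 genes or 47.3% had some summit in the window, beside 59.9% of all genes, and 39 had none. Within 5 kb, 62 of the 74 had a pooled summit, or 83.8%, beside 84.7% of all genes, and cyp-25A4 and cyp-29A4 had no summit of any list.

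The signals of the summits in cyp windows had medians below those of all genes in each relaxed list. Over the 25 cyp genes with a pooled window summit, the median of the strongest signal was 7.83, beside 9.60 over the 8239 such genes in the genome, 6.98 for ugt and 9.83 for gst. In replicate 1 the medians were 3.34 for cyp genes and 4.46 for all genes, and in replicate 2 they were 5.80 and 6.78. In percentiles of the pooled list, the medians were 53.2 for cyp genes and 66.9 for all genes with a window summit.

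**Figure D3:**
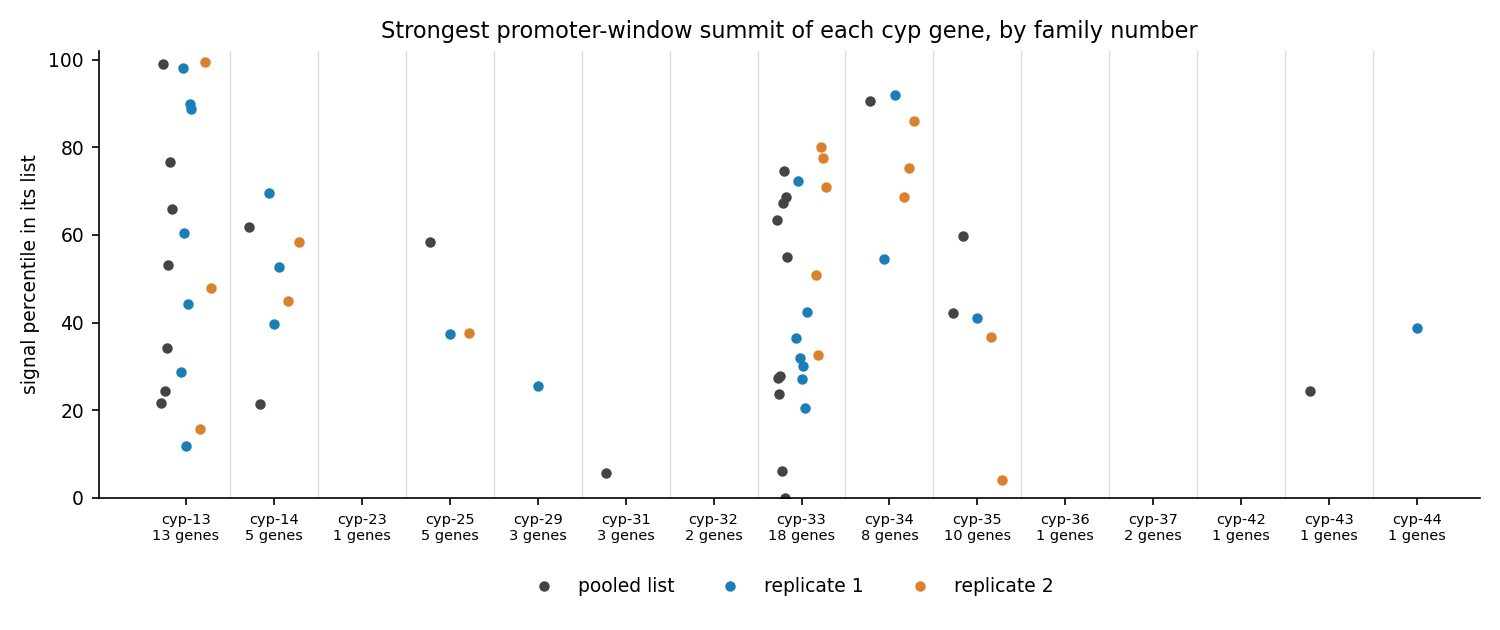
Signal percentile within its list (y axis) of the strongest promoter-window summit of each cyp gene, by family number (x axis, with the number of genes), for the pooled, replicate 1 and replicate 2 lists, each point being 1 gene in 1 list. cyp-13A2 tops the cyp-13 column in each list, cyp-34A1 tops the cyp-34 column, and the families cyp-23, cyp-32, cyp-36, cyp-37 and cyp-42 have no point.

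Among genes with no IDR summit within 5 kb, the strongest window summit was that of cyp-34A1 on chromosome V. It lay at position −76 with a pooled signal of 21.2, rank 2825 of 30000, below the lowest IDR signal. Replicate 1 listed 9.80 there (rank 2369) and replicate 2 listed 11.4 (rank 4226), with summits 16 bp apart. The 101 bases centred on it held AGATAA and TGATAG, in capitals below, on the strand of the gene. They are shown as the promoter nearest to the threshold.
cyp-34A1 at −76, ce11 chrV:15287982-15288082, minus strand: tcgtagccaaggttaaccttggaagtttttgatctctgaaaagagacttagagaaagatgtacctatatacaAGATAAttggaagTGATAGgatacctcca

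After cyp-34A1 the signals fell to near the genome-wide median of window summits. The pooled signal was 11.7 for cyp-13B1, 11.1 for cyp-33C9, 9.93 for cyp-33D1, 9.66 for cyp-33C5 and 9.46 for cyp-13B2. It was 9.04 for cyp-33E3, 8.55 for cyp-35D1, 8.39 for cyp-25A2 and 8.01 for cyp-33D3. For cyp-33E3 and cyp-35D1 neither replicate had a summit in the window, and cyp-13B1, cyp-33D1 and cyp-13B2 had one in replicate 1 only, at 8.67, 3.40 and 8.21. For cyp-33D3 only replicate 2 had one, at 7.47. Both replicates had a window summit at cyp-33C9 (2.91 and 8.62), cyp-33C5 (2.80 and 9.25) and cyp-25A2 (3.18 and 4.69). Over all 10 genes with a window summit in both replicates, the strongest ones lay within 100 bp of each other in 4, namely cyp-13A1, cyp-13A2, cyp-25A2 and cyp-34A1.

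Distal regions below the lowest IDR signal of 27.7 are given for 3 further genes. The pooled signal was 25.8 at position −2368 of cyp-33E1 (9.51 in replicate 1, 14.4 in replicate 2), in an intron of C49C8.5 and the window of C49C8.2. It was 23.8 at position −1302 of cyp-23A1 (9.94 and 14.2), between genes and in no promoter window. It was 20.3 at position −4159 of cyp-13A11 (rank 3011), with 15.5 in replicate 2 at position −4156. The strongest replicate 1 summit within 5 kb of cyp-13A11 was 11.2 (rank 1880), at position −4843. That position is further from the pooled summit than the 100 bp used to match replicates. Downstream of the cyp-37B1 start, the strongest summit within 5 kb lay at position 4222 in replicate 1 (rank 1321) and 4611 in replicate 2 (rank 4625). These 2 places are further apart than the 100 bp used to match replicates. The strongest pooled summit, at position 4209 (rank 10840), lay between genes in the window of F28G4.2.

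By family, window summits of the pooled list were found at 7 of 13 cyp-13 genes, 10 of 18 cyp-33 genes, 2 of 5 cyp-14 genes, 1 each of the 5 cyp-25, 3 cyp-31 and 8 cyp-34 genes, and the only cyp-43 gene, beside 41.2% of all genes. The intervals for the largest families, 30.8% to 78.5% for cyp-33 and 25.1% to 80.8% for cyp-13, include that share. Of the 10 cyp-35 genes, the xenobiotic-inducible family, cyp-35A2 (6.89) and cyp-35D1 (8.55) had one. None of the 10 had an IDR summit within 5 kb (interval 0% to 30.85%), beside 15.7% of all genes. The 3 cyp-29 genes had no window summit in the pooled list. cyp-31A2 and cyp-31A3, needed for lipids of the eggshell, had no window summit in any list. The same was true of cyp-36A1, which acts in oxygen-linked behaviour downstream of HIF-1. cyp-13A12, also linked to behavioural responses to oxygen, had a pooled signal of 7.83 at position −168, with 3.47 in replicate 1 and no window summit in replicate 2. With 1 to 18 genes a family, differences between families were not tested.

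By position, 45 of the genes formed 11 clusters whose neighbouring gene bodies lay at most 20 kb apart, and 29 genes stood alone. IDR summits lay within 5 kb of 3 clustered genes or 6.67% and of 4 lone genes or 13.8%, beside 15.7% of all genes. Pooled window summits were at 33.3% of clustered and 34.5% of lone genes, beside 41.2% of all genes. In replicate 1 the window counts were 14 clustered and 9 lone genes, and in replicate 2 they were 13 and 3, beside 39.7% and 41.5% of all genes in the respective lists. The 8-gene cyp-13A1 to cyp-13A8 cluster on II spanned 28.4 kb and held both cyp-13A2 IDR summits. With 5 kb on each side it held 28.6 pooled summits per 100 kb, beside 30.4 for the chromosome. The largest cluster had 10 genes, from cyp-35A5 to cyp-34A10 over 36.7 kb of V. It held no IDR summit and 7 pooled summits over 46.7 kb with flanks. None of its genes had a pooled window summit. The replicate lists had window summits at cyp-35B1 and cyp-34A8 in replicate 1, and at cyp-34A8 and cyp-34A9 in replicate 2. Those of cyp-34A8 lay 183 bp apart. The cyp-25A1 to cyp-25A4 cluster on III held 10.2 pooled summits per 100 kb beside 34.3 for the chromosome. At that cluster a median of 68.1% of the 31-base words in the windows were unique, so reads there can be lost between copies. Their part in the low count was not tested. The cyp-14A1 to cyp-14A4 cluster on X held 44.6 per 100 kb beside 31.8 for X, with no IDR summit.

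**Figure D4:**
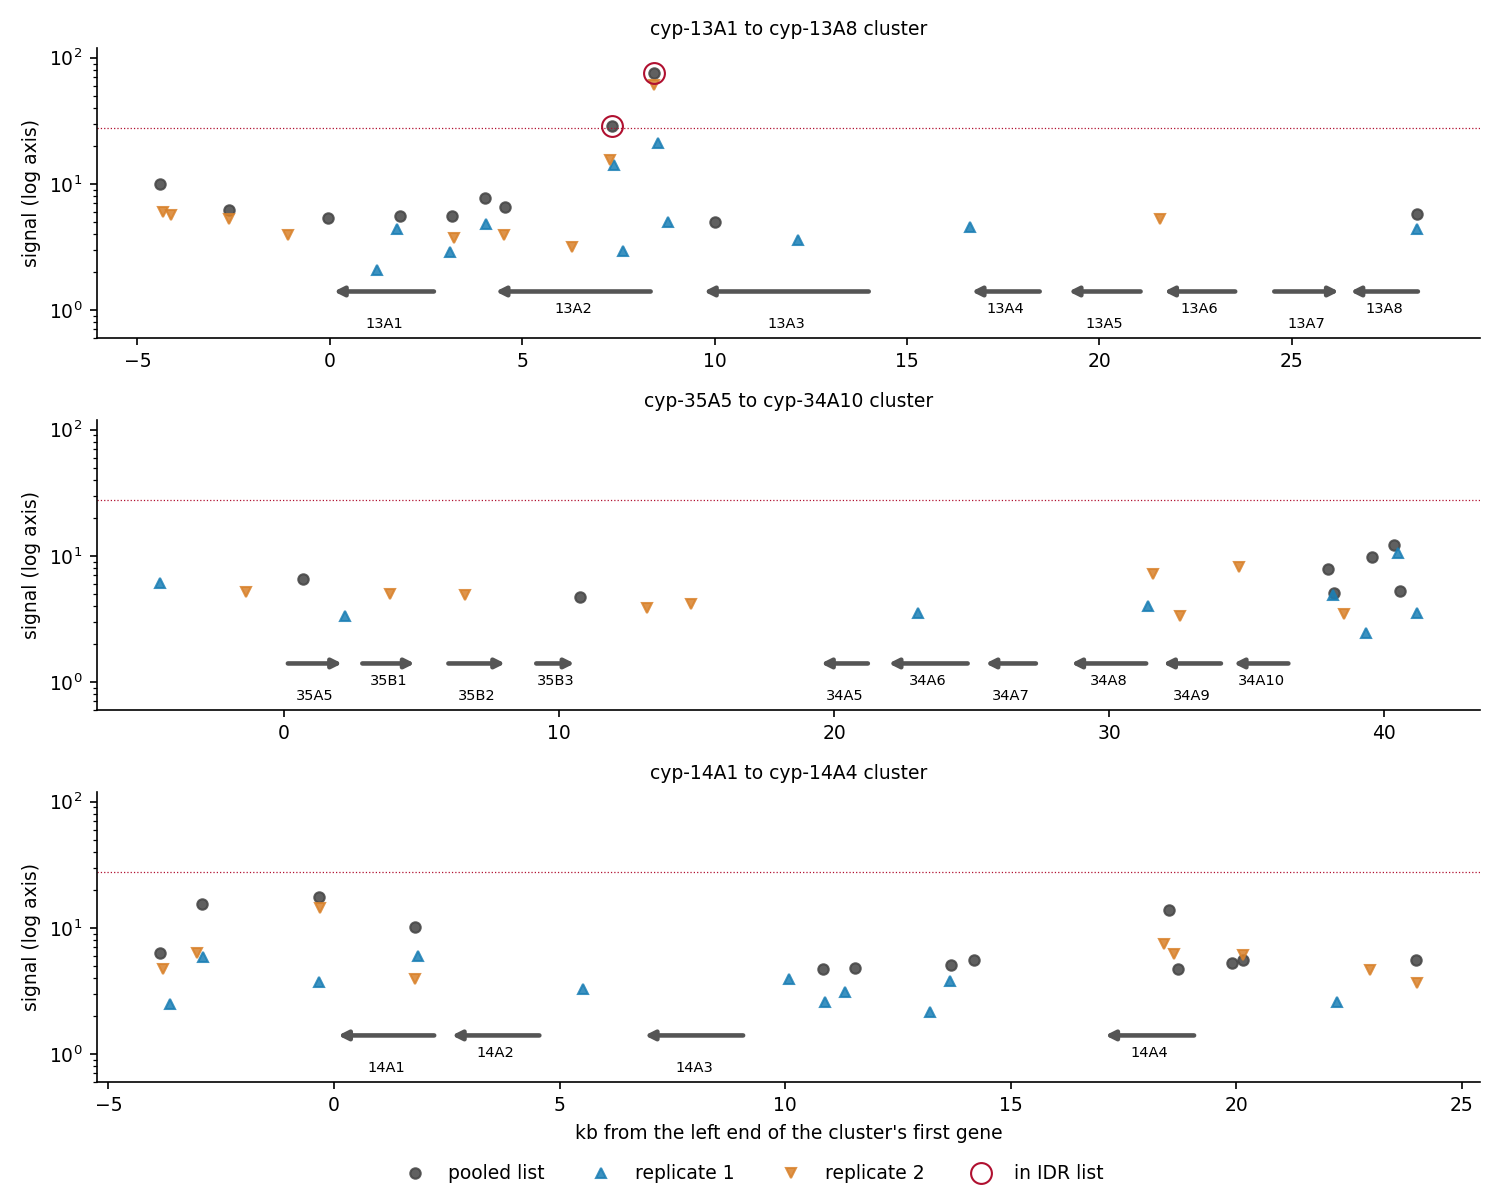
Summits (signal on a log axis) along 3 cyp clusters (kb from the left end of the first gene), with genes as arrows in the direction of transcription, labelled without their cyp- prefix, IDR summits ringed and the lowest IDR signal of 27.7 as a dotted line. Ringed summits occur only at cyp-13A2, and the cyp-35A5 to cyp-34A10 cluster has its few pooled summits mainly at its right edge.

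Distances to the nearest IDR summit need no window. The median was 30257 bp over cyp genes, with quartiles at 12777 and 59981 bp and a range from 10 to 472996 bp, beside a median of 25260 bp over all genes. On chromosome V it was 50961 bp for cyp genes and 33940 bp for the others. Clustered genes there share a nearest summit, so these distances are not independent. The 4 genes from cyp-33C1 to cyp-33C12 and the 5 from cyp-33C4 to cyp-33C7 lay 307488 to 378514 bp from the same summit. The 10 genes from cyp-35A5 to cyp-34A10 lay 7080 to 43745 bp from another. The medians were 33067 bp for ugt and 31209 bp for gst genes.

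**Figure D5:**
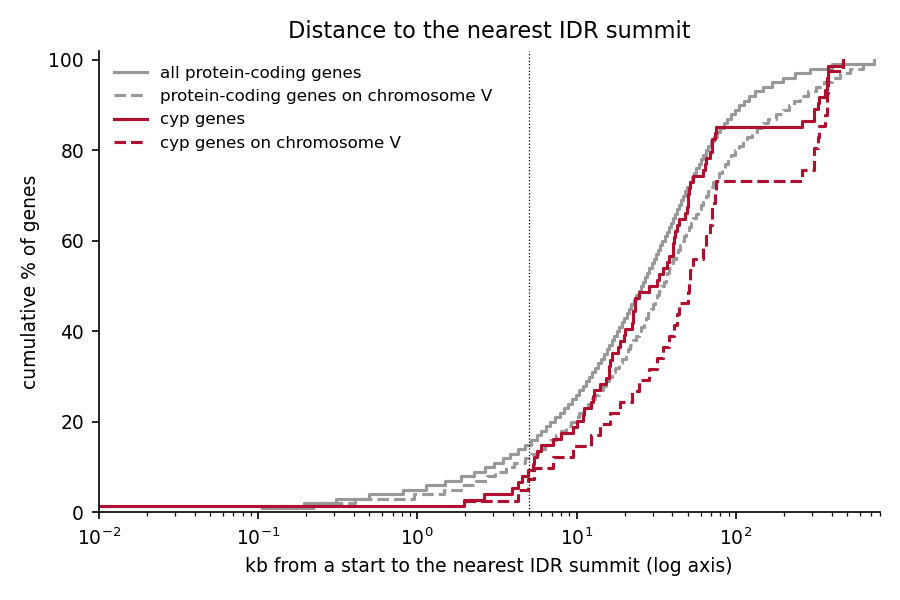
Cumulative share of genes (%, y axis) by distance from a start to the nearest IDR summit (kb, log x axis) for cyp genes and all protein-coding genes, in the genome (solid) and on chromosome V (dashed), with 5 kb dotted. The cyp genes on V lie to the right of all protein-coding genes on V through most of the range, with medians of 50961 and 34102 bp. Clustered genes share a nearest summit, so the steps are not independent.

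GATA hexamers were common in P450 promoters. In the 300 bp from 250 upstream to 50 downstream of the start, 61 of 74 cyp genes or 82.4% held at least 1 of the 4 hexamers (interval 71.8% to 90.3%), beside 54.5% of all promoters of the same length. The share was 88.1% for ugt and 52.3% for gst. By form, AGATAA stood in 35.1% of cyp promoters beside 21.2% of all, AGATAG in 14.9% beside 9.21%, TGATAA in 43.2% beside 30.2% and TGATAG in 24.3% beside 11.2%. A promoter that holds several forms counts under each. Median GC content was 32.0% for cyp promoters and 34.3% for all, and its part in the hexamer share was not tested. All 10 cyp-35 promoters held a hexamer, 8 of them TGATAA. No IDR summit lay within 5 kb of any of them, a share with an interval from 0% to 30.85%. That interval includes the 15.7% of all genes.

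With any of the 4 hexamers in the promoter, 36.1% of cyp genes had a pooled window summit, beside 23.1% of the 13 genes without one, and in replicate 1 the shares were 31.1% and 30.8%. In replicate 2 they were 26.2% with a hexamer and 0 of 13 genes without. Over all genes the pooled shares were 40.1% with a hexamer and 42.6% without, the opposite order. They were 39.1% and 40.3% in replicate 1, and 40.3% and 42.8% in replicate 2. Among the 26 cyp promoters with AGATAA, 12 or 46.2% of the genes had a pooled window summit, beside 13 of 48 or 27.1% without it. Over all genes the same shares were 43.3% and 40.7%. In replicate 1 the cyp shares were 38.5% with AGATAA and 27.1% without, and in replicate 2 they were 38.5% and 12.5% (6 of 48 genes). The all-gene shares with and without AGATAA were 41.6% and 39.15% in replicate 1, and 43.0% and 41.0% in replicate 2. Differences between these shares were not tested. A match is a description of these letters and not a binding site. The promoters of cyp-13A3 and cyp-25A1 show hexamers without a summit of any list in the window, and are given for that contrast. cyp-13A3, next to cyp-13A2 in the array, holds 2 AGATAA in the stretch below, and in the 250 bases before its start cyp-25A1 holds AGATAA in 1 place. In 3 further places that stretch reads TTATCA, which is the T-initial form on the other strand.
cyp-13A3, ce11 chrII:9793472-9793515, minus strand: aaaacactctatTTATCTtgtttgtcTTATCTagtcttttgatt
cyp-25A1, ce11 chrIII:3832341-3832590, plus strand: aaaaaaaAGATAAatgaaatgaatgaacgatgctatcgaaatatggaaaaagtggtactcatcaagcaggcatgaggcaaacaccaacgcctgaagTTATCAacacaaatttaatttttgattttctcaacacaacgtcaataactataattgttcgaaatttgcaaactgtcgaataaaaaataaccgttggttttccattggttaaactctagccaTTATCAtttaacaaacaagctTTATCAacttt

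Genes that work with the P450 enzymes were read from lists in the same way, against the 5.03% of all genes with an IDR summit in the window and the 15.7% with one within 5 kb. Apart from ugt and gst these lists hold 3 to 14 genes. They were chosen with earlier results of these data known, and are given as counts only. emb-8, which encodes the P450 reductase, had no window summit in the IDR, pooled or replicate 1 lists and a region of 4.42 (rank 20304) at position −182 in replicate 2, with the nearest IDR summit 3170 bp away. None of the 3 electron donors (emb-8, cytb-5.1 and cytb-5.2) had an IDR summit in the window, and 2 had one within 5 kb. daf-9, the P450 outside the cyp- names that makes the hormone dafachronic acid, had a pooled signal of 7.56 at position −170, with 5.53 in replicate 1 and 8.75 in replicate 2, and no IDR summit within 64015 bp. Of the 9 genes of the dafachronic acid and sterol route (daf-9, daf-36, dhs-16, hsd-1, strm-1, ncr-1, ncr-2, daf-12 and din-1), only din-1, a cofactor of the hormone's receptor, had an IDR window summit, with a signal of 29.7.

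Across lists of regulators, oxygen-route genes, flavin monooxygenases, transporters and tissue markers, IDR window summits were found in a few cases. Of 13 xenobiotic and stress regulators (nhr-8, nhr-86, nhr-176, nhr-49, nhr-80, mdt-15, skn-1, wdr-23, daf-16, pha-4, elt-2, ahr-1 and aha-1), nhr-49, a nuclear receptor of fat metabolism, had an IDR window summit (55.9, rank 514, with 11.8 in replicate 1 and 38.6 in replicate 2), and 3 had one within 5 kb. Of the 7 genes of the oxygen route of cyp-36A1 (hif-1, egl-9, rhy-1, cysl-1, cysl-2, vhl-1 and nhr-46), nhr-46 had an IDR window summit (41.3, rank 934) and 5 had one within 5 kb, beside 15.7% of all genes. None of the 5 flavin monooxygenase genes and none of the 14 pgp transporter genes had an IDR summit within 5 kb, and 1 of the 8 mrp transporter genes did. The window summits of ugt-13 (29.2) and gst-20 (47.2) were weaker than that of cyp-13A2. Among markers of tissues, 1 of 10 epidermis genes (col-10, 43.95) and none of 9 intestine genes had an IDR window summit. A pooled one was at 7 epidermis genes or 70% and 4 intestine genes or 44.4%, beside 41.2% of all genes. In replicate 1 the shares were 70% and 66.7%, beside 39.7% of all genes. In replicate 2 they were 60% and 55.6%, beside 41.5%. Both replicates had a window summit at 4 genes of each list, or 40% and 44.4%, beside 24.4% of all genes.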

How the data were processed

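ELT-1 binding was read from the authors' deposited peak lists on ce11, without reads or control. Per the authors' library file lists, regions were called for each replicate and for both pooled against a control, and the IDR list was derived from these. In the sources used here the aligner, the peak caller and the threshold on IDR are not given. The signal per peak, its −log10 q value and the summit offset are as deposited by the authors. The −log10 q values reach a shared highest value of 3.83 for all IDR peaks, so only signal was used to rank. Per the labels, fragments were 150 to 350 bp long.

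Summits were assigned with Python 3.11.15 (pandas 2.3.3, numpy 2.4.6, scipy 1.17.1) to transcript starts of Ensembl release 115, whose chromosomes fit the peak coordinates. Replicate summits were matched within 100 bp. Sequences are from the WBcel235 genome. Uniqueness is the percentage of 31-base words found once in the genome. Named genes were every cyp gene with an IDR summit within 5 kb, the 10 next strongest by pooled window signal, partner genes with an IDR window summit, and emb-8 and daf-9. The cyp-37B1, cyp-13A11, cyp-33E1, cyp-23A1 and family examples were chosen after their values were seen. Members and lists were chosen with earlier results of these data known. Of the intestine list, opt-2 found no match. No test was run, since 1 group of 2 replicates gives no contrast. Assignment was tested on simulated data, where 500 of 500 summits placed inside a window and 0 of 500 placed outside were assigned.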

Additional observations from a re-analysis of the deposited data

How the results depend on the processing

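Across 24 alternative settings, 16 left the count within 1.5 times of the reported one and 8 moved it further. The IDR window count of 1 became 2 with a window reaching 2000 bp upstream, which adds cyp-14A5, and stayed 1 without either replicate. The share over all genes also moved with the settings, to 7.04% with that wider window. The pooled window count of 25 fell to 16 with a window from 500 bp upstream to 100 bp downstream and to 13 with the stronger 50% of the pooled list. The shares over all genes fell from 41.2% to 29.6% and 26.8% with these settings. Without a replicate the count ranged from 16 (replicate 2 alone) to 23 (replicate 1 alone), beside 41.5% and 39.7% of all genes. The 5 kb count of 7 became 2 with a reach of 2 kb, 14 with 10 kb and 2 when distal summits went to the nearest protein-coding start. The shares over all genes were 8.32%, 26.2% and 8.39% in these settings, beside 15.7% in the main one. Without replicate 1 the 5 kb count was 6, losing cyp-13A1, and without replicate 2 it was 8, losing cyp-44A1 and adding cyp-13A11 and cyp-37B1. The summits with a hexamer numbered 5 within 50 bp, 3 within 25 bp and 6 within 100 bp. Over all IDR summits the shares were 39.7%, 23.7% and 55.5%. The 11 clusters became 12 with gaps of at most 10 kb and 9 with 50 kb. In the single-replicate settings as many of the strongest peaks of the other replicate stood in for the IDR list. No paired analysis was possible because there is 1 group. Read depth is unknown, so weak binding below the lists cannot be told from none.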
